A study of Mus musculus with 6 samples.

Results

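The cytosolic ribosomal protein genes are the genes that encode the protein parts of the ribosome outside mitochondria. They were taken here as every row of the deposited table whose symbol is Rpl or Rps followed by a number and at most 1 letter, together with Rplp0, Rplp1, Rplp2 and Rpsa. This gave 82 genes of 25164 rows, 50 of the large (60S) subunit with its stalk and 32 of the small (40S) subunit. RNA of whole mouse ovaries was sequenced at day 1 in 6 libraries. 3 libraries were labelled cKO and carried the genotype hnRNPL flox/flox;Stra8-cre, and 3 were wild type (WT), all on the C57BL/6 strain. hnRNPL is an RNA-binding protein that takes part in splicing, and the Stra8 promoter drives Cre recombinase in germ cells, and not in the other cells of an ovary. The labels' protocol speaks of a hormone challenge before lysis, which is not described further and is given for both genotypes. The labels do not state that each library was a different animal, so p-values measure only the spread between these libraries.

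Each ribosome holds 1 copy of nearly every ribosomal protein, and cells make the proteins in matched amounts. The mRNAs are short and abundant, and most begin at a C followed by a run of pyrimidines, the 5′ terminal oligopyrimidine (TOP) tract, through which mTOR signalling controls how well they are translated. Free copies of some members, Rpl5 and Rpl11 among them, bind Mdm2 and so tie ribosome assembly to p53. In the growing oocyte, ribosomes are made and stored for the embryo. Mammalian genomes also hold many processed copies of these genes, made by reverse transcription of their mRNAs, and reads of a member and of a near-identical copy cannot be told apart.

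The tract of pyrimidines is shown for 8 genes that have it and for a pair of related genes, Rpl10 and Rpl10l, whose windows have none. Each line gives the 10 bases before and the 20 bases from the annotated start of transcription, 5′ to 3′ on the gene's strand, and the capitals mark the pyrimidine run at the start. The sequences are from RefSeq on GRCm38.p6, the assembly behind mm10.
Rps6 (chr4:86857348-86857377, minus strand): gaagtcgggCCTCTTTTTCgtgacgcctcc
Rps10 (chr17:27635225-27635254, minus strand): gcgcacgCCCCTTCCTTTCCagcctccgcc
Rps18 (chr17:33955646-33955675, minus strand): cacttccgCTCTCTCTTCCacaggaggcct
Rpl15 (chr14:18270967-18270996, minus strand): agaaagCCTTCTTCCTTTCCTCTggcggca
Rpl28 (chr7:4792955-4792984, plus strand): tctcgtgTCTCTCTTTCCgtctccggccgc
Rpl35 (chr2:39005112-39005141, minus strand): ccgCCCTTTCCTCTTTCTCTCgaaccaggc
Rpl35a (chr16:33056472-33056501, plus strand): gcttgCCTTCCTCTTTCCgccatcttggcg
Rplp2 (chr7:141447641-141447670, plus strand): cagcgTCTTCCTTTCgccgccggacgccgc
Rpl10 (chrX:74270806-74270835, plus strand): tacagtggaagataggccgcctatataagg
Rpl10l (chr12:66284382-66284411, minus strand): cctccattttgcggctggcggtgggcacgc

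Promoter sequence was found for 61 of the 82 genes, with 73 annotated starts. A run of at least 5 pyrimidines at the start was present in 41.1% of these 73 promoters and in 21.6% of all 32851 promoters of the same table. The word CTTTCC on the gene's strand, within 50 bases of the start, was in 30.1% of the members' promoters and 4.69% of all. CTTCC in the same window was in 45.2% and 19.5%. Both words can lie inside one pyrimidine run. Over the whole 300 bases and on both strands, CCGGAAG, a form of the site of ETS factors, was in 35.6% of the members' promoters and 8.86% of all. AAGATGG, the core of the YY1 site, was in 15.1% and 6.34%. CCGGAAG read on the opposite strand contains CTTCC, so these counts overlap. A start annotated a few bases away moves the tract out of the window, so these shares describe the annotated starts alone.

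Hnrnpl, the targeted gene (chromosome 7, 28808546 to 28822268 on GRCm38), was at 100.5, 81.5 and 85.2 FPKM in cKO replicates 1, 2 and 3 and at 104.1, 93.8 and 101.9 FPKM in WT replicates 1, 2 and 3. FPKM are fragments per kilobase of transcript and per fixed number of mapped fragments. The groups overlapped and the log2 fold change was -0.17 (SE 0.13, limma adjusted p = 0.571). Divided by the size factors described below, it stood at 85.5, 84.2 and 87.5 in cKO and 105.3, 95.4 and 107.4 in WT, which do not overlap, and the log2 fold change was -0.26 (adjusted p = 0.150). It was also -0.26 without cKO replicate 1 (adjusted p = 0.180) and -0.38 after all libraries were rescaled to one FPKM sum (adjusted p = 0.0934), and it passed in none of these. After that rescaling the median of all tested genes was -0.115. In a whole ovary most cells do not drive Stra8, and fewer cells of a type and less RNA per cell cannot be told apart in such tissue. The deposited table gives 1 value a gene, so the deleted exons were not checked.

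cKO replicate 1 stood apart from the other 5 libraries. Its FPKM summed to 335667, against 223845 to 246121 in the others, and it was the shallowest, with an estimated 7200000 fragments against 10700000 to 14400000. The median tested gene was 0.24 higher there, on the log2(FPKM + 1) scale, than its mean over the other 5 libraries. The shortest sixth of genes, with transcripts up to 1432 bp, was 0.44 higher. By the same estimate, which assumes 200 bp fragments, a median of 1262.5 to 1825 fragments per library stood behind a member's value. Marker sums of several cell types also differed between the genotypes. Summed FPKM of 6 stroma markers was 512 to 548 in cKO and 664 to 695 in WT, of 5 surface epithelium markers 62.1 to 90.8 and 109 to 130, and of 6 erythroid markers 463 to 534 and 772 to 836. For 8 germ cell and oocyte markers the sums were 122 to 215 in cKO and 102 to 113 in WT, and 5 of the 8 had positive log2 fold changes. Without cKO replicate 1, 3 of these 8 were positive and 5 negative, with a median of -0.14. Of all markers, limma called 2 on the deposited FPKM, both lower in cKO: Zp3 of the oocyte (log2 fold change -1.51, adjusted p = 0.0437) and Upk1b of the surface epithelium (-1.47, adjusted p = 0.0428). After median-of-ratios scaling 3 germ cell markers were called higher and 2 lower. That fit also called 3 surface epithelium markers, 1 stroma, 1 smooth muscle and 1 pregranulosa marker, all lower in cKO, beside 161 of all 12442 tested genes. Sums for 7 pregranulosa markers were 274 to 355 and 258 to 266, for 5 endothelium markers 51.3 to 59.4 and 64.1 to 78.7, for 5 leukocyte markers 9.04 to 10.54 and 10.01 to 12.3, and for 4 smooth muscle markers 21.9 to 25.5 and 32.1 to 36.4. Every marker was above 0 in all 6 libraries, and their part in the values of the members was not tested.

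**Figure D1:**
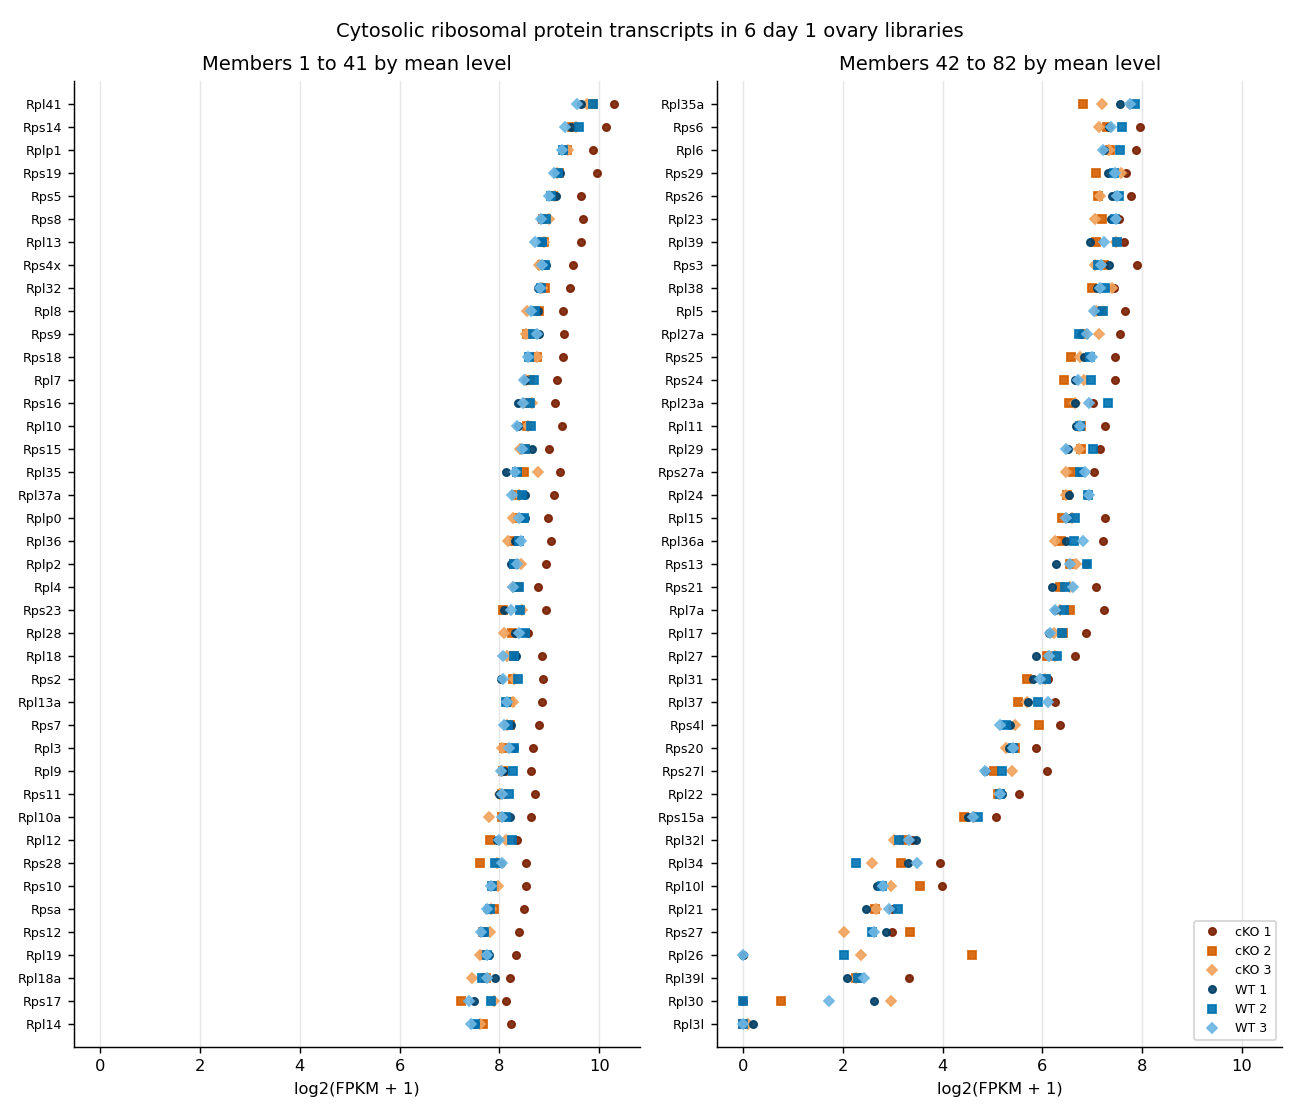
Level of each of the 82 ribosomal protein genes in the 6 libraries, on the log2(FPKM + 1) scale, ordered by mean level in 2 panels. Each point is 1 library. The dark red points of cKO replicate 1 lie to the right of the others for most genes, and the 61 genes with means over 100 FPKM fill the upper part of the order.

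The members were among the abundant transcripts of the ovary, and their levels spanned a wide range. Means over the 6 libraries exceeded 100 FPKM for 61 genes, lay between 10 and 100 FPKM for 12 and were under 10 FPKM for 9. Rpl41, the smallest ribosomal protein, had the highest level, with 1254.9, 936.6 and 861.4 FPKM in cKO and 789.5, 938.0 and 745.8 FPKM in WT. Rps14, a protein of the 40S platform, was at 1126.0, 699.2 and 744.0 FPKM in cKO and 688.0, 770.0 and 632.9 FPKM in WT. Both had the library cKO replicate 1 on top, and the other cKO libraries lay within the WT range. Rplp1 (683 FPKM over all 6 libraries) and Rps19 (644 FPKM) followed, and the order of the 4 is not separated beyond the spread of single libraries. Across the members, log2 levels of any pair of libraries had correlations of 0.950 to 0.995, as a description over 81 genes that share library, depth and length.

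The whole family was shifted in 1 cKO library. cKO replicate 1 was the highest of the 6 libraries for 72 of the 81 tested members, and for 58.0% of all tested genes. Members were a median of 0.58 higher there on the log2(FPKM + 1) scale than in the other 5, against 0.24 for all tested genes and 0.43 for the shortest sixth with the members left out. In each of the other 5 libraries the members' median lay between -0.16 and -0.022 of the rest. The median ratio of cKO replicate 1 to the mean of cKO replicates 2 and 3 was 1.504, with quartiles of 1.41 and 1.62. The median coefficient of variation of a member was 26.2% among the cKO libraries and 7.51% among the WT libraries, where all tested genes had 16.3% and 8.72%. So the members varied less between WT libraries than the median tested gene, and more between cKO libraries, where cKO replicate 1 is included. The levels compared are unlike: the median of the member means was 194 FPKM, and the median tested gene was at 6.85 to 8.40 FPKM per library. The part of level in these figures was not tested.

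**Figure D2:**
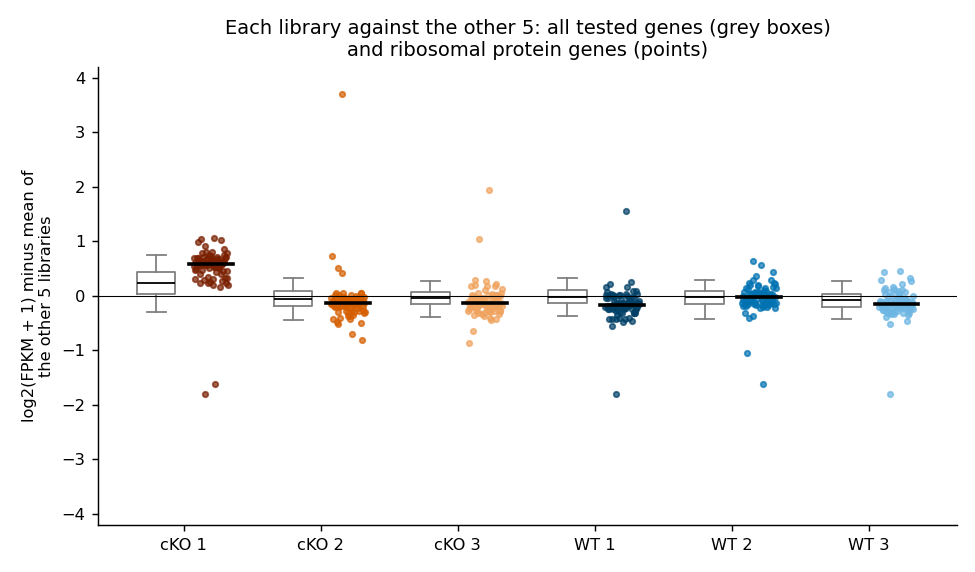
Each library against the mean of the other 5, as a difference in log2(FPKM + 1). Grey boxes show the quartiles and median of all tested genes with whiskers at the 5th and 95th percentiles, points are the 81 tested ribosomal protein genes and black bars are their medians. The points of cKO replicate 1 centre on 0.58, and those of the other libraries between -0.16 and -0.022.

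Other gene lists, short and long, were also higher in cKO replicate 1. The median was 0.65 above the other 5 libraries for 7 ribosomal proteins that the symbol rule leaves out, 0.60 for 75 respiratory chain subunits, 0.59 for 17 other TOP mRNAs, 0.45 for 78 mitochondrial ribosomal proteins, 0.42 for 64 ribosome assembly factors 0.32 for 15 genes of the RNA polymerase I machinery and 0.18 for 9 ribosomal protein pseudogenes. The median transcript was 464 bp for the pseudogenes and 2986 bp for the RNA polymerase I genes. The tested members are short, with a median transcript of 835 bp against 2939 bp for all tested genes, and 70 of the 81 belong to the shortest sixth. Over the 81 tested members, length and the log2 fold change of cKO against WT had correlations of -0.0059 with all libraries and -0.038 without cKO replicate 1. These values describe the fold changes and not the shift of cKO replicate 1, and they include the erratic rows of Rpl26 and Rpl30. The parts of library, depth and length in the shift were not tested.

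The summed level of the family shows the same single library. The members summed to 27277, 17855 and 18097 FPKM in cKO and to 17767, 18962 and 17549 FPKM in WT. The 2 cKO libraries other than replicate 1 lay inside the WT range. As a share of all FPKM in a library the family was 8.13%, 7.53% and 7.35% in cKO and 7.51%, 8.47% and 7.31% in WT, so on this measure the groups overlapped fully. With the structural RNAs Rmrp, Rpph1 and Rn45s left out, which took 8.08% to 18.5% of a library's FPKM, the shares were 9.97%, 8.44% and 8.81% in cKO and 8.68%, 9.22% and 8.62% in WT. cKO replicate 1 was then the highest, and the groups still overlapped. The ratio of the summed 60S members to the summed 40S members was 1.24, 1.33 and 1.26 in cKO and 1.29, 1.32 and 1.30 in WT.

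No ribosomal protein gene passed the test between cKO and WT. Of 81 members with a mean of at least 1 FPKM, limma called 0 at an adjusted p under 0.05, where the share of all 12442 tested genes called was 0.121%. At an unadjusted p under 0.05 there were 3 members, all higher in cKO, or 3.70% of members against 14.2% of all genes. The median log2 fold change of the members was 0.18, with 69 positive and 12 negative, beside a median of 0.077 and 65.2% positive over all genes. For 73 of the 81 members the 95% interval of the difference lay within 1 log2 unit either way, so a change of more than 2-fold is outside the interval for these, by the spread of these libraries. Under other settings 1 member passed after all libraries were rescaled to one FPKM sum (Rpl35a), where 149 of all 12442 tested genes passed. Without cKO replicate 3 there was also 1 (Rpl10l), beside 74 of all 12419 tested genes.

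Without cKO replicate 1 the family's positive median was gone. Limma again called 0 of 81 members, beside 0.717% of 12411 genes, and the median was -0.0078 with 38 positive and 43 negative, against -0.0010 for all genes. At an unadjusted p under 0.05 there were then 14 members, 5 higher and 9 lower, or 17.3% of members against 16.5% of all genes. Scaling each library by its median ratio to the others, which leaves all libraries in, gave size factors of 1.175 for cKO replicate 1 and 0.949 to 0.989 for the others. After that scaling 0 of 81 members were called, beside 1.29% of all genes, the median was 0.096 with 58 positive and 23 negative, and 7 members were under an unadjusted p of 0.05, 5 higher and 2 lower, or 8.64% of members against 18.9% of all genes.

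**Figure D3:**
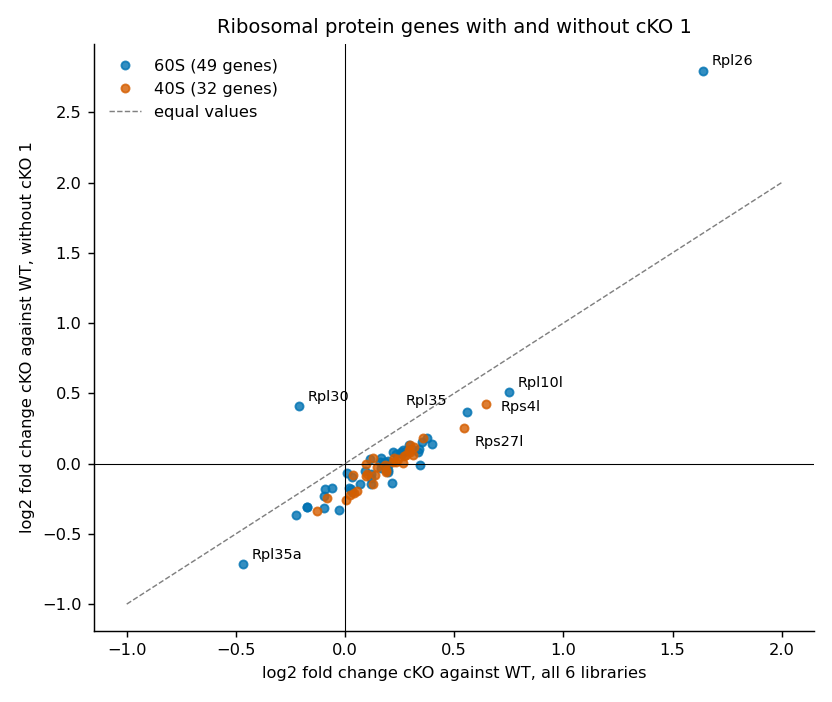
Log2 fold change of cKO against WT for each of the 81 tested ribosomal protein genes, with all 6 libraries on the horizontal axis and without cKO replicate 1 on the vertical axis, in blue for 60S and orange for 40S genes. Most points lie below the dashed line of equal values, the median moving from 0.18 to -0.0078, and Rpl26 and Rpl30, whose rows hold few reads, lie away from the rest.

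Both subunits gave nearly the same picture. With all libraries the median log2 fold change was 0.17 for 49 tested 60S members, 39 of them positive, and 0.19 for 32 tested 40S members, 30 of them positive. Without cKO replicate 1 the medians were -0.011 and 0.0021. No member of either subunit was called in either fit.

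Counts of libraries that did not overlap were near or below the background. All 3 cKO libraries lay above all 3 WT libraries for 11 of 81 members, where 15.5% of all tested genes did. These were Rpsa, Rps4l, Rps10 and Rps18 of the 40S group and Rplp1, Rpl10l, Rpl13, Rpl13a, Rpl14, Rpl32 and Rpl35 of the 60S group. All 3 cKO libraries lay below WT for 0 members, against 7.03% of all genes. With cKO replicates 2 and 3 alone, 12 members lay above all WT libraries (16.9% of all genes) and 16 lay below (17.8% of all genes). After median-of-ratios scaling 11 members lay above (12.6% of all genes) and 2, Rpl35a and Rpl23, lay below (13.0% of all genes). The lists of single genes that follow were picked by the smallest p on each side or by role, so a direction within them comes with that choice.

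In the 40S subunit, Rpsa, also known as the laminin receptor precursor, was at 359.8, 236.2 and 226.8 FPKM in cKO and 215.1, 224.8 and 214.3 FPKM in WT. The groups did not overlap, yet the gap between cKO replicate 3 and WT replicate 2 was small, and the log2 fold change was 0.30 (SE 0.21, limma adjusted p = 0.532) and 0.086 without cKO replicate 1. Rps6, the protein phosphorylated by S6 kinase downstream of mTOR, was at 245.7, 156.0 and 140.4 FPKM in cKO and 161.3, 192.4 and 166.0 FPKM in WT. Its highest and its 2 lowest libraries were all cKO, and its log2 fold change turned from 0.021 with all libraries to -0.22 without cKO replicate 1 and -0.066 after median-of-ratios scaling. Rps19, the gene most often mutated in Diamond-Blackfan anaemia, was at 991.0, 584.9 and 567.5 FPKM in cKO and 592.8, 580.1 and 548.8 FPKM in WT, so cKO replicates 2 and 3 lay within the WT range. Rps27a, made as a fusion with ubiquitin, was at 129.8, 97.2 and 87.6 FPKM in cKO and 107.5, 107.0 and 114.3 FPKM in WT, with 2 cKO libraries below WT and 1 above.

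Among the 60S proteins that meet p53 surveillance, Rpl5 was at 199.6, 142.6 and 134.4 FPKM in cKO and 139.2, 147.1 and 129.6 FPKM in WT. Rpl11, its partner in the 5S particle, was at 152.0, 107.9 and 103.5 FPKM in cKO and 101.6, 106.5 and 106.9 FPKM in WT. Both were high in cKO replicate 1 and overlapped WT in the other libraries, with log2 fold changes of -0.00017 and 0.0092 without that library. Rpl3, which lies near the peptidyl transferase centre, was at 404.9, 273.1 and 266.0 FPKM in cKO and 310.6, 313.9 and 289.8 FPKM in WT, and its log2 fold change was 0.019 with all libraries and -0.18 without cKO replicate 1. Rpl22, an RNA-binding member, was at 45.5, 33.4 and 33.9 FPKM in cKO and 35.7, 34.4 and 34.6 FPKM in WT. Rpl3 and Rpl22 were thus lower than every WT library in cKO replicates 2 and 3 and higher in cKO replicate 1.

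The stalk proteins recruit translation factors, and Rplp1 was the most abundant of the 3. Rplp0, the base of the stalk, was at 498.3, 331.4 and 307.8 FPKM in cKO and 365.3, 361.1 and 332.9 FPKM in WT. Rplp1 was at 933.5, 655.4 and 660.4 FPKM in cKO and 621.4, 614.6 and 610.7 FPKM in WT, and Rplp2 was at 490.6, 310.6 and 345.1 FPKM in cKO and 298.2, 313.4 and 325.1 FPKM in WT. Rplp1 did not overlap between groups, with a log2 difference of 0.26 (SE 0.23, limma adjusted p = 0.604) that was 0.096 without cKO replicate 1 and turned to -0.069 after quantile normalization, while the other two did not separate the groups.

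Several members have a relative of their own, and the levels of these relatives were far apart. Rpl3l, the striated muscle form of Rpl3, was listed at 0 in 4 libraries and was at 0.068 FPKM in cKO replicate 3 and 0.156 FPKM in WT replicate 1, so it was not tested. Rpl39l, a form of Rpl39 known from testis, was at 8.98, 3.81 and 3.81 FPKM in cKO and 3.25, 3.94 and 4.38 FPKM in WT, with only cKO replicate 1 outside the range of the others. Rpl39 itself was at 198.2, 132.9 and 176.5 FPKM in cKO and 122.5, 180.2 and 149.5 FPKM in WT, with no separation of the groups.

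Rpl10l, a copy of X-linked Rpl10 without introns that serves male meiosis when the X is silent, had the smallest p of the family. It was at 15.0, 10.8 and 6.86 FPKM in cKO and 5.401, 5.923 and 6.007 FPKM in WT. All cKO libraries were above all WT libraries, cKO replicate 3 by a small step. The log2 fold change was 0.75 (SE 0.23, limma adjusted p = 0.228), 0.67 after median-of-ratios scaling (adjusted p = 0.114) and 0.51 without cKO replicate 1 (adjusted p = 0.210). Without cKO replicate 3 it passed the test, the log2 fold change being 1.02 (limma adjusted p = 0.0444). Rpl10 was at 607.7, 373.7 and 378.6 FPKM in cKO and 330.8, 397.1 and 323.9 FPKM in WT, and the groups overlapped. The coding sequences of Rpl10 and Rpl10l are 84.7% identical over 642 bases, and the 98 differences are spread along them. Their first 90 bases are set side by side to show how far short reads can tell the genes apart, from the start codon on, with the 13 differing bases in capitals (GENCODE M21, GRCm38).
Rpl10: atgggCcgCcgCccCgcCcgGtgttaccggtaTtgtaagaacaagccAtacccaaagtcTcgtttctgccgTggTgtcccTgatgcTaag
Rpl10l: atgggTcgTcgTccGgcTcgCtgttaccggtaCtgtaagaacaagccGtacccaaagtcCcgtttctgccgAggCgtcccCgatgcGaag

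Rps4l, annotated by RefSeq as a transcribed pseudogene of chromosome 6 (148354656 to 148355596), was at 80.34, 59.96 and 42.49 FPKM in cKO and 39.7, 37.8 and 34.5 FPKM in WT. The groups did not overlap, and the 3 cKO libraries were widely spread. The log2 fold change was 0.65 (SE 0.21, limma adjusted p = 0.259) and 0.43 without cKO replicate 1 (adjusted p = 0.216). Its parent Rps4x, on the X chromosome, was at 709.3, 462.9 and 439.5 FPKM in cKO and 487.1, 482.5 and 462.5 FPKM in WT, and the groups overlapped. The Rps4x coding sequence is 80.1% identical to Rps4l. Rps27l, a relative of Rps27 that p53 is known to induce, was at 67.0, 31.9 and 40.8 FPKM in cKO and 27.7, 35.5 and 27.7 FPKM in WT. Its groups overlapped, with a log2 difference of 0.55 (SE 0.25, limma adjusted p = 0.377) and 0.25 without cKO replicate 1.

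Rpl35 and Rpl35a of the 60S subunit stood on opposite sides of the family, and neither passed the test on the deposited FPKM. Rpl35, which sits at the exit of the peptide tunnel (chromosome 2, 39001581 to 39005131), was at 589.8, 360.5 and 433.9 FPKM in cKO and 280.9, 325.5 and 316.3 FPKM in WT. All cKO libraries were above all WT libraries, also after median-of-ratios scaling. Its log2 fold change was 0.56 (SE 0.22, limma adjusted p = 0.326), 0.47 after median-of-ratios scaling (adjusted p = 0.137) and 0.36 without cKO replicate 1 (adjusted p = 0.194).

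Rpl35a, another gene of Diamond-Blackfan anaemia (chromosome 16, 33056453 to 33060189), was at 214.3, 110.8 and 146.1 FPKM in cKO and 188.0, 229.6 and 214.5 FPKM in WT. cKO replicate 1 lay among the WT libraries and the other 2 lay below them. Divided by the size factors it stood at 182.4, 114.5 and 150.1 in cKO and 190.1, 233.6 and 226.0 in WT, which do not overlap. The log2 fold change was -0.47 (SE 0.24, limma adjusted p = 0.422), -0.56 after median-of-ratios scaling (adjusted p = 0.141) and -0.72 without cKO replicate 1 (adjusted p = 0.0905). Rescaling every library to the same FPKM sum took it past the threshold, at -0.68 (limma adjusted p = 0.0466). That rescaling left all tested genes with a median of -0.115 and 30.8% positive. Taken relative to the median of the family in the same library, Rpl35a was at -0.39, -0.56 and -0.37 in cKO and 0.061, 0.19 and 0.26 in WT on the log2 scale. On that scale Rpl35 was at 1.07, 1.14 and 1.19 in cKO and 0.64, 0.70 and 0.81 in WT. Within the family, then, both genes separated the 3 cKO libraries, cKO replicate 1 included, from the 3 WT libraries. The fit on this scale gave -0.61 for Rpl35a (limma adjusted p = 0.0720) and 0.42 for Rpl35 (adjusted p = 0.375).

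**Figure D4:**
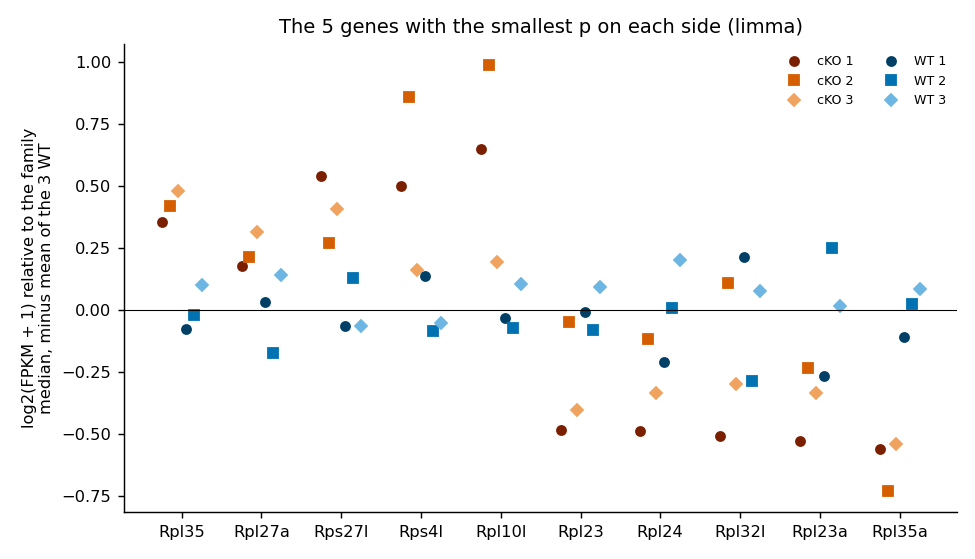
The 5 ribosomal protein genes with the smallest p among positive and the 5 among negative log2 fold changes, as log2(FPKM + 1) relative to the family's median in the same library, with the mean of the 3 WT libraries set to 0. Each point is 1 library. For Rpl35, Rpl27a, Rps27l, Rps4l and Rpl10l all cKO points lie above all WT points, and for Rpl35a all cKO points lie below, while Rpl23, Rpl24, Rpl32l and Rpl23a overlap.

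The remaining genes with the smallest p were less separated. Rpl27a was at 188.2, 112.3 and 139.7 FPKM in cKO and 109.1, 105.2 and 117.3 FPKM in WT, with a log2 difference of 0.37 (SE 0.20, limma adjusted p = 0.428) and 0.18 without cKO replicate 1. Rpl23, a further Mdm2 binder, was at 185.0, 145.6 and 131.6 FPKM in cKO and 165.2, 174.7 and 176.2 FPKM in WT, with a log2 difference of -0.17 (SE 0.17) and -0.31 without cKO replicate 1 (adjusted p = 0.141). For both genes 1 cKO library crossed into or beyond the range of the other group. Rpl23a had a log2 fold change of -0.23, Rpl24 of -0.17 and Rpl32l, at 7.21 to 10.1 FPKM in the 6 libraries, of -0.092. RefSeq gives Rpl32l as protein coding and GENCODE as a processed pseudogene.

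Of the 4 lowest tested members, Rpl30, Rpl39l, Rpl26 and Rps27, all but Rpl39l had near-identical copies with far higher rows. The copies were looked for after the members' values had been seen. A copy was taken as a transcript at least 95% identical over at least 80% of the member's coding sequence, and 17 members had such a copy with its own row. For Rpl26, Rpl30, Rps27 and Rpl34 the member's row held only 2.17%, 2.10%, 2.99% and 3.77% of the sum of member and copies. The rows of these members were erratic: Rpl30 was at 6.78 FPKM in cKO replicate 3 and 5.22 FPKM in WT replicate 1 but near 0 in cKO replicate 1 and WT replicate 2, and Rpl26 was at 23.0 FPKM in cKO replicate 2 and near 0 in cKO replicate 1 and 2 of the WT libraries. No fold change of these rows is interpreted, and sums of a member with its copies are given instead. Each row is divided by its own transcript length, so a sum of FPKM still depends in part on how fragments were shared, the Rpl26 transcript being 606 bp and that of Gm15772 438 bp.

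For the copies of Rpl26 and Rpl34, 90 bases of the coding sequence are printed around 1 difference from the member, which is in capitals (GENCODE M21, GRCm38). They show why a read can seldom be given to one gene. Substitutions are counted from 1 at the A of the start codon, with the member's base first. Gm15772 differs from Rpl26 by C177T and T288C over 435 bases, and Rpl34-ps1 from Rpl34 by T132C and C318G over 351. Rps27rt matches all 252 coding bases of Rps27.
Rpl26, bases 132 to 221: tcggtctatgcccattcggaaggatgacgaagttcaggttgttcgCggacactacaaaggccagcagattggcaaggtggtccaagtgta
Gm15772: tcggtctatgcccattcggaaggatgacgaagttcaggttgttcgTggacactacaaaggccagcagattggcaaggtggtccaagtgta
Rpl34, bases 87 to 176: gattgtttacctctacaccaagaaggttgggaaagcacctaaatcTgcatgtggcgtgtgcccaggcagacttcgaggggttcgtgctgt
Rpl34-ps1: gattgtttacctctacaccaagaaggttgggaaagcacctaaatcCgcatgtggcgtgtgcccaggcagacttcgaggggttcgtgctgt

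Rpl26, a 60S protein that also binds p53 mRNA, together with its copy was the one member whose sum passed the test, and it did so in 2 of 3 fits. Gm15772, a transcribed pseudogene of chromosome 5 (3236390 to 3236928), was at 174.1, 102.5 and 123.5 FPKM in cKO and 305.1, 353.9 and 301.8 FPKM in WT. It is named here because of these values. The sum of Rpl26 and Gm15772 was 174.1, 125.5 and 127.6 FPKM in cKO and 305.1, 357.0 and 301.8 FPKM in WT. Every cKO library was below every WT library, and cKO replicate 1, the library in which the family ran high, was among them. The log2 fold change of the sum was -1.18 (SE 0.18, limma adjusted p = 0.0628) with all libraries as deposited and did not pass. It was -1.27 after median-of-ratios scaling (adjusted p = 0.00529) and -1.33 without cKO replicate 1 (adjusted p = 0.00685), where it passed. For Gm15772 alone the log2 differences were -1.29 (adjusted p = 0.0752), -1.38 (adjusted p = 0.00940) and -1.50 (adjusted p = 0.00895). From these values it cannot be told apart whether the difference lies in RNA of Rpl26, RNA of Gm15772, or both.

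The other sums gave no call. Rpl30 with 3 copies, Gm12191 the most abundant, was at 146.9, 113.8 and 141.4 FPKM in cKO and 86.3, 127.9 and 96.7 FPKM in WT, with a log2 difference of 0.38 (SE 0.19, limma adjusted p = 0.399). Rpl34 with Rpl34-ps1 was at 348.8, 204.5 and 214.3 FPKM in cKO and 195.6, 175.5 and 194.4 FPKM in WT, with 0.40 (SE 0.22, adjusted p = 0.452) and 0.15 without cKO replicate 1. All 3 of its cKO sums lay above all 3 WT sums. Rps27 with Rps27rt was at 196.7, 108.3 and 279.8 FPKM in cKO and 178.1, 191.3 and 241.4 FPKM in WT, a spread within cKO wider than any difference between the groups. Rps6 with Rps6-ps4, where the member holds 65.8% of the sum, was at 360.0, 239.1 and 213.8 FPKM in cKO and 261.9, 277.1 and 261.2 FPKM in WT. Rpl21 had 57 near-identical copies in the annotation, so its row, at 4.51 to 7.62 FPKM, is uncertain too. With these sums in place of single rows, limma called 0 of 81 members as deposited, and 1, Rpl26, after median-of-ratios scaling or without cKO replicate 1. Over all tested genes the same fits called 22 of 12442 as deposited, 162 of 12442 after that scaling and 91 of 12411 without that library.

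**Figure D5:**
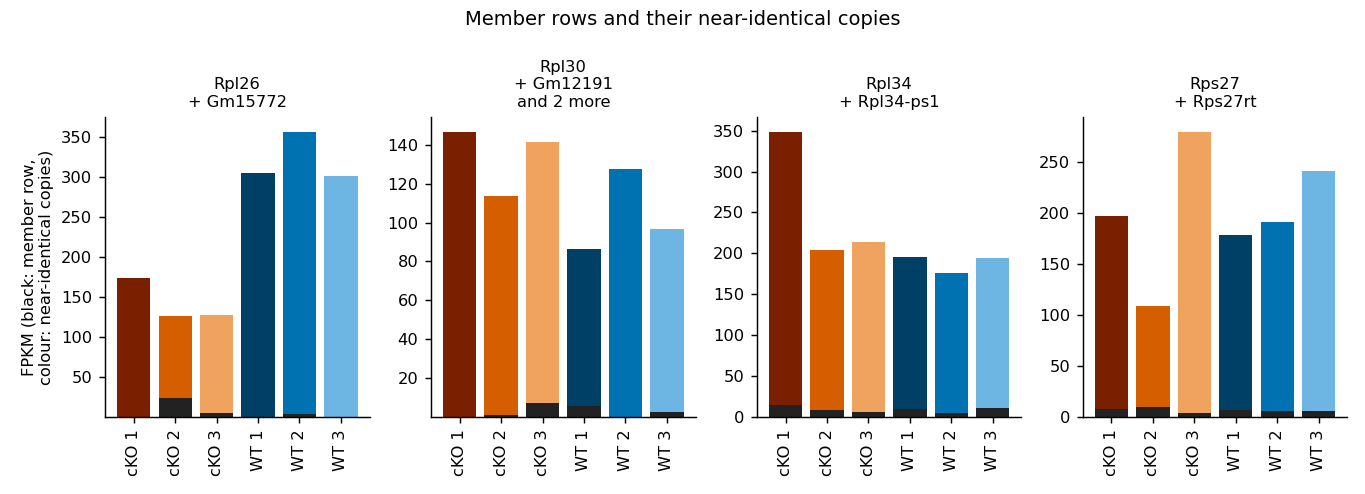
FPKM of the rows of Rpl26, Rpl30, Rps27 and Rpl34 in black and of their near-identical copies in colour, stacked for each of the 6 libraries from 0. The copies hold nearly all of each bar, and the 3 cKO bars of Rpl26, at 125.5 to 174.1 FPKM, stand below its WT bars, at 301.8 to 357.0 FPKM. Those of Rpl34, at 204.5 to 348.8 FPKM, stand above its WT bars, at 175.5 to 195.6 FPKM.

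Genes around the ribosome gave the same answer as the members, with 0 called in every list as deposited and 1 exception after scaling. The 7 tested ribosomal proteins outside the symbol rule had a median log2 fold change of 0.21, 7 of 7 positive. Rpl7l1, a relative of Rpl7, was among them (log2 fold change 0.17, limma adjusted p = 0.489). The 17 other TOP mRNAs had a median of 0.18, with 15 positive, and of -0.017 without cKO replicate 1, with 7 positive and 10 negative. Gas5, a noncoding host of small nucleolar RNAs, had the smallest p among them. It was at 9.362, 4.328 and 7.502 FPKM in cKO and 10.499, 8.963 and 11.309 FPKM in WT (log2 fold change -0.53, limma adjusted p = 0.352), with overlap of 1 cKO library. Eif3h, an initiation factor subunit, had 0.29, and 0.086 without cKO replicate 1.

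Among the 64 ribosome assembly factors the median was 0.16, with 55 positive, and 0.047 without cKO replicate 1, with 36 positive. Heatr3, which brings Rpl5 and Rpl11 to the nucleus, was at 9.23, 8.33 and 7.57 FPKM in cKO and 5.78, 6.52 and 5.37 FPKM in WT, without overlap, and its log2 fold change was 0.44 (SE 0.11, limma adjusted p = 0.175) and 0.38 without cKO replicate 1. Mdn1, the assembly ATPase of the 60S subunit, had 0.32 and 0.35 without that library. The 15 tested genes of RNA polymerase I had a median of 0.18, with 13 positive, and of 0.043 without cKO replicate 1, with 10 positive. Cd3eap, one of its subunits, had 0.50, and 0.30 without that library, while Taf1c, of its selectivity factor, had 0.29 and 0.23.

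The 11 genes that control translation of TOP mRNAs had a median of -0.0023, with 5 positive and 6 negative. Eif4ebp1, the mTOR target that blocks initiation when it is not phosphorylated, was at 37.3, 30.9 and 20.4 FPKM in cKO and 16.0, 15.2 and 16.0 FPKM in WT. Its groups did not overlap, and the log2 fold change was 0.83 (SE 0.20, limma adjusted p = 0.159), 0.74 after median-of-ratios scaling (adjusted p = 0.0614) and 0.64 without cKO replicate 1. Mycn, a transcription factor that drives ribosome genes, was at 6.97, 6.06 and 7.67 FPKM in cKO and 9.70, 10.3 and 8.50 FPKM in WT, also without overlap, with a log2 difference of -0.41 (SE 0.12, adjusted p = 0.205). Neither passed the test.

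Of 5 genes of p53 surveillance the median was 0.11, with 4 positive. Ccng1 had a log2 fold change of 0.29 (limma adjusted p = 0.366) and Mdm2 of 0.15 (adjusted p = 0.558). The 78 mitochondrial ribosomal proteins had a median of 0.19, with 65 positive, led by Mrpl40 (0.64) and Mrpl57 (0.51). The 75 tested respiratory chain subunits had a median of 0.28, with 68 positive. Ndufb2, a complex I subunit, was at 25.9, 20.5 and 22.7 FPKM in cKO and 15.5, 13.3 and 15.7 FPKM in WT, with a log2 fold change of 0.60 (limma adjusted p = 0.120), and 0.51 after median-of-ratios scaling, where it passed (adjusted p = 0.0421). Atp5k, of the ATP synthase, had -0.35. Without cKO replicate 1 the medians of these families were 0.061 for the mitochondrial ribosomal proteins and 0.062 for the respiratory chain, and 0.071 for the ribosomal proteins outside the rule, next to -0.0078 for the members.

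The 9 rows named as ribosomal protein pseudogenes had a median of -0.098, with 6 negative. Their median was -0.17 after median-of-ratios scaling, with 6 negative, and -0.25 without cKO replicate 1, with 8 negative. In cKO replicate 1 their median was 0.18 above the other 5 libraries, against 0.58 for the members. Rpl31-ps12 had the smallest p among them, at 4.05, 3.24 and 4.08 FPKM in cKO and 8.20, 3.87 and 6.81 FPKM in WT (log2 fold change -0.56, limma adjusted p = 0.324), and its groups overlapped by 1 WT library. These pseudogene rows can share reads with their parents, as above.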

How the data were processed

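The authors deposited 1 table of FPKM values for 25164 gene symbols in 6 libraries. The submitters' processing notes list the mm10 build, featureCounts 2.0.6, HISAT2 2.2.1 and STAR 2.7.11a, with no roles. The program that made FPKM, the annotation and the treatment of multi-mapping and duplicate reads are not given in the sources used here. The deposited values are labelled rmdup, a word that is not explained, and the part of duplicate reads in the levels was not tested. FPKM divides by all mapped fragments, so a few abundant RNAs can lower the rest. Values were taken to log2(FPKM + 1), which understates changes of low genes. All 12442 genes averaging 1 FPKM or more were tested with limma 3.58.1 in R 4.3.3 (intensity trend, two-sided, Benjamini-Hochberg over all tested genes, threshold 0.05). Depth was estimated from steps of FPKM, assuming 200 bp fragments. Copies were found with blastn 2.17.0 in GENCODE M21. The limma fit, without scaling and with median-of-ratios scaling, was tried on simulated data, and the other steps were not.

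The members and lists were chosen with earlier results of these data known. Single genes were named for their role, for the 4 highest and 4 lowest levels, and for the 5 smallest p on each side; from each list the 2 smallest p, except 1 gene that is not reported here. Rps10, Rps18, Rpl15, Rpl28 and the copies were chosen after values were seen. Alternatives were another pseudocount and filters, scalings, correction for length and GC, weighted libraries, blocking on replicate number and dropping 1 library at a time.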

Additional observations from a re-analysis of the deposited data

How the results depend on the processing

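The count of 0 members called held with a pseudocount of 0.1, no filter or a filter at 5 FPKM, quantile and median-of-ratios scaling, centring on the family, length and GC correction, no trend, library weights and the replicate block. It was 1 after TPM rescaling (Rpl35a), 0 to 1 over the fits that leave out 1 library (1 without cKO replicate 3, Rpl10l), and 1 with copies summed (chosen after seeing the data), both after median-of-ratios scaling and without cKO replicate 1 (Rpl26). Over all tested genes, the fits with copies summed called 162 after median-of-ratios scaling and 91 without cKO replicate 1. The fit without cKO replicate 3 called 74. The cause of these changes was not tested.

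Over all genes, the 15 called became 34 with a pseudocount of 0.1, 5 with no filter, 23 with a filter at 5 FPKM, 161 after median-of-ratios scaling, 236 after quantile normalization, 149 after TPM rescaling, 45 when centred on the family, 37 with length and GC correction, 5 with no trend, 172 with library weights and 2 to 89 when 1 library was left out. The 0 called over the pathway lists became 1 after median-of-ratios scaling, 2 after quantile normalization, 1 after TPM rescaling and 0 to 2 when 1 library was left out. The 15 were 6 higher and 9 lower, the 161 were 95 higher and 66 lower, and the 236 were 131 higher and 105 lower. The members' median log2 fold change ran from -0.024 after TPM rescaling, where that of all genes was -0.115, to 0.28 without cKO replicate 3.

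Same-numbered cKO and WT libraries had correlations of -0.011, 0.039 and 0.068, and differently numbered ones of -0.066 to 0.028. These values cannot tell whether the numbers pair the libraries, and the labels state no pairing. With the replicate block 0 members and 2 genes in all were called.

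Signs of fold changes turned as follows. After TPM rescaling the values were -0.19 for Rps6, -0.10 for Rps27, -0.19 for Rpl3, -0.032 for Rpl5, -0.024 for Rpl11, -0.12 for Rpl22, -0.043 for Rpl39 and -0.14 for Rplp0. When centred on the family they were -0.12 for Rps6, -0.042 for Rps27, -0.12 for Rpl3, -0.051 for Rpl22 and -0.070 for Rplp0. With length and GC correction they were -0.068 for Rps6 and -0.057 for Rpl3. With library weights they were -0.14 for Rps6, -0.13 for Rpl3, -0.023 for Rpl22, -0.086 for Rplp0 and 0.0068 for Rpl30. After median-of-ratios scaling they were -0.066 for Rps6, -0.069 for Rpl3 and -0.017 for Rplp0. After quantile normalization they were -0.082 for Rps6, -0.15 for Rpl3, -0.043 for Rpl22, -0.15 for Rplp0, -0.069 for Rplp1, -0.015 for Rpl41 and -0.047 for Rps14. With copies summed they were -0.014 for Rps6, -0.15 for Rps27, -1.18 for Rpl26 and 0.38 for Rpl30. With copies summed and median-of-ratios scaling they were -0.10 for Rps6, -0.24 for Rps27, -1.27 for Rpl26 and 0.29 for Rpl30. With copies summed and without cKO replicate 1 they were -0.24 for Rps6, -0.011 for Rps19, -0.21 for Rps27, -1.33 for Rpl26 and 0.31 for Rpl30. Leaving out 1 library at a time gave -0.22 to 0.18 for Rps6, -0.25 to 0.035 for Rps27a, -0.18 to 0.48 for Rps27, -0.18 to 0.13 for Rpl3, -0.00017 to 0.28 for Rpl5, -0.053 to 0.17 for Rpl22, -0.0080 to 0.52 for Rpl39l, -0.14 to 0.20 for Rplp0, -1.07 to 0.41 for Rpl30 and -0.18 to 0.00084 for Rpl32l.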
